A study of Arabidopsis thaliana with 26 samples.

Results

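Plant cells move the hormone auxin across their membranes with dedicated carrier proteins, and 7 Arabidopsis carrier genes were followed here across the root: PIN2, PIN3, PIN5 and PIN8, LAX1 and LAX3, and ABCB19. They were found by locus code in the deposited matrix of 16384 probe sets for 16255 loci. A row was present for 6 of the 7, and PIN3 was not analysed here. The 6 genes were PIN2 (AT5G57090, EIR1 in the RefSeq annotation), PIN5 (AT5G16530), PIN8 (AT5G15100), LAX1 (AT5G01240), LAX3 (AT1G77690) and ABCB19 (AT3G28860). Each had 1 probe set, and none of these carries the name suffix that marks probes shared between genes.

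The values came from 26 microarrays in 10 groups of Arabidopsis seedling roots. In the first experiment, cells with green fluorescent protein (GFP) driven by the SCARECROW (SCR) promoter, which is active in endodermis and quiescent centre, were sorted from root tips cut at 250 µm. These SCR cells came from untreated seedlings 2 days after germination (0 h, 3 arrays) and from seedlings moved at that age to 1 µM 2,4-D, a synthetic auxin, for 24 h, 48 h, 72 h or 96 h (2 arrays each). In the second, quiescent centre (QC) cells were sorted at 3 days with GFP under the WOX5 promoter from jkd mutants, from the wild type raised beside them, and from wild type plants harvested on their own, called the separate harvest below (3 arrays each), while excised meristems of wild type and jkd at 3 days gave 3 arrays each. The QC array titles name the line Col-0 and the allele jkd-4, the meristem labels name only wild type and jkd, and JACKDAW, the gene affected in jkd, encodes a zinc finger protein that regulates transcription in ground tissue. No untreated SCR cells of 24 h to 96 h were profiled, so 2,4-D and seedling age cannot be told apart in any difference from 0 h. No label says that arrays of a group came from separate plants, so the p-values rest on array-to-array spread alone, and that spread may be technical.

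As background, the PIN proteins export auxin. The long PINs, PIN2 among them, sit in the plasma membrane, often on one face of the cell, and so set the direction of auxin flow. PIN2 does so in the epidermis, cortex and lateral root cap, and roots without it do not bend normally under gravity. The short PINs, PIN5 and PIN8, sit in the endoplasmic reticulum and act on auxin inside the cell. AUX1 and the LAX proteins import auxin with protons, and LAX3 is known for its induction by auxin in the cells that overlie a new lateral root. ABCB19 is an ATP-driven exporter that works with the immunophilin-like protein TWD1.

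Replicates correlated at 0.889 to 0.962 at 0 h, 0.955 to 0.974 within the treated times, 0.908 to 0.969 within the QC groups and 0.981 to 0.992 within the meristem groups. Mean plastid log2 signals were 7.08, 7.67 and 10.01 in 0 h replicates 1, 3 and 5. They were 8.99 to 10.02 in the treated SCR arrays, 9.23 to 10.3 in the QC arrays and 7.11 to 7.35 in the meristem arrays. At 0 h, replicate 5 was thus like the other sorted arrays, while replicates 1 and 3 lay nearer the meristem. JKD, the mutated gene, ranged from 1.37 to 24.86 in the jkd QC and from 6.23 to 13.35 in the jkd meristem, against at least 68.67 in every wild type QC array and 172.76 in every wild type meristem array. In untreated SCR cells it ranged from 11.3 to 101.9, so a low JKD signal was not confined to the jkd arrays. The summed signal of 7 endodermis markers was 14478.8 to 24484.4 at 0 h, against 754.53 to 1028.7 in the wild type meristem. That of 7 QC markers was 2035.7 to 3119.8 in the 3 QC groups and 951.83 to 1042.63 in the wild type meristem. WOX5 itself was not analysed here, and none of the cortex markers had a row. Values of the time series and the separate QC harvest carry 1 decimal and those of the other 12 arrays 2, so a step of processing may differ between these sets.

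Signals below are MAS5 signal intensities on a linear scale as deposited. Differences are on the scale log2(signal + 16), given with their standard error, and "passed" means an adjusted p under 0.05 from limma with Benjamini-Hochberg adjustment over the 11469 probe sets tested in each fit. The tests leave out probe sets whose mean lay in the lowest 30% of the arrays fitted, and a signal under 16, the constant added, is treated here as near background. PIN2, LAX3 and ABCB19 were tested in every comparison. PIN5 was tested in 1 of them, and PIN8 and LAX1 in 0.

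LAX3, the influx carrier, varied most, with group means that spanned 4.05 on the log2 scale. Its signals at 0 h were 197.3, 320.4 and 271.1. In SCR cells on 2,4-D they were 33.7 and 36 at 24 h, 0.6 and 0.6 at 48 h, 12.4 and 2.2 at 72 h, and 0.8 and 7.8 at 96 h. All 8 treated arrays lay below every 0 h array, and those of 48 h and later lay below 16. In the separate QC harvest LAX3 read 97.7, 136.6 and 123.7, and in wild type QC grown with jkd 93.09, 60.23 and 34.6. In the jkd QC it read 10.75, 9.84 and 0.7, below every wild type QC array. The wild type meristem gave 158.37, 231.07 and 208.98 and the jkd meristem 232.13, 248.29 and 231.4. The mutant arrays were higher, but the gap was only from 231.07 to 231.4, and the difference did not pass (limma adjusted p = 0.911). Ordered by group mean, 5 of the 9 pairs of neighbouring groups were separate and 4 overlapped. Among the separate pairs were 96 h and 48 h, both near background, and the meristem groups with their narrow gap. The groups were put in order by these same values. How often neighbouring groups are separate for other probe sets was not counted, for LAX3 or for the carriers below.

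LAX1, the other influx carrier, stayed low, between 2.53 and 31.2 over the 26 arrays. Its highest array was at 0 h, where the 3 arrays read from 5.2 to 31.2 and spanned most of its range. All 9 neighbouring pairs of groups overlapped, so no order of its groups can be read.

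PIN2, the gravitropism exporter, read 504.1, 645.8 and 878 at 0 h and from 523.4 to 938 in the 8 treated arrays. The treated range covers most of the 0 h range. In the QC it read 528.7, 540 and 510.8 in the separate harvest, 195.15, 359.91 and 594.91 in wild type grown with jkd, and 248.88, 186.84 and 363.64 in jkd. Wild type meristems gave 1730.76, 1314.33 and 1581.29 and jkd meristems 1708.95, 1864.43 and 1775.76. Every meristem array stood above every sorted array, and the step from the meristem to the SCR cells was the only one of the 9 between neighbouring groups without overlap.

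ABCB19, the ATP-driven exporter, read 1081.2, 1148.2 and 1639 at 0 h. On 2,4-D it read 604.3 and 894.9 at 24 h, 779.5 and 841.3 at 48 h, 1194.2 and 870.4 at 72 h, and 861.5 and 1090.9 at 96 h. Both arrays of 24 h and of 48 h lay below every 0 h array, while each later time had 1 array inside the 0 h range. The separate QC harvest gave 1095.4, 1117.8 and 1130.6, whereas wild type QC grown with jkd gave 528.81, 418.2 and 492.34. The jkd QC, at 464.13, 288.07 and 522.17, overlapped the wild type grown with it, and the meristem arrays of both genotypes lay between 1210.64 and 1526.94.

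The reticulum carriers were low. PIN8 read 60.8, 41.9 and 57.7 at 0 h, and no other array passed 23. In the 8 treated arrays it lay between 1.3 and 23, so the 0 h arrays stood apart from them and from all QC and meristem arrays. PIN5 read 25.6, 57.9 and 35.9 at 0 h and between 1.2 and 39.09 elsewhere, and all 9 neighbouring pairs of its groups overlapped.

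**Figure D1:**
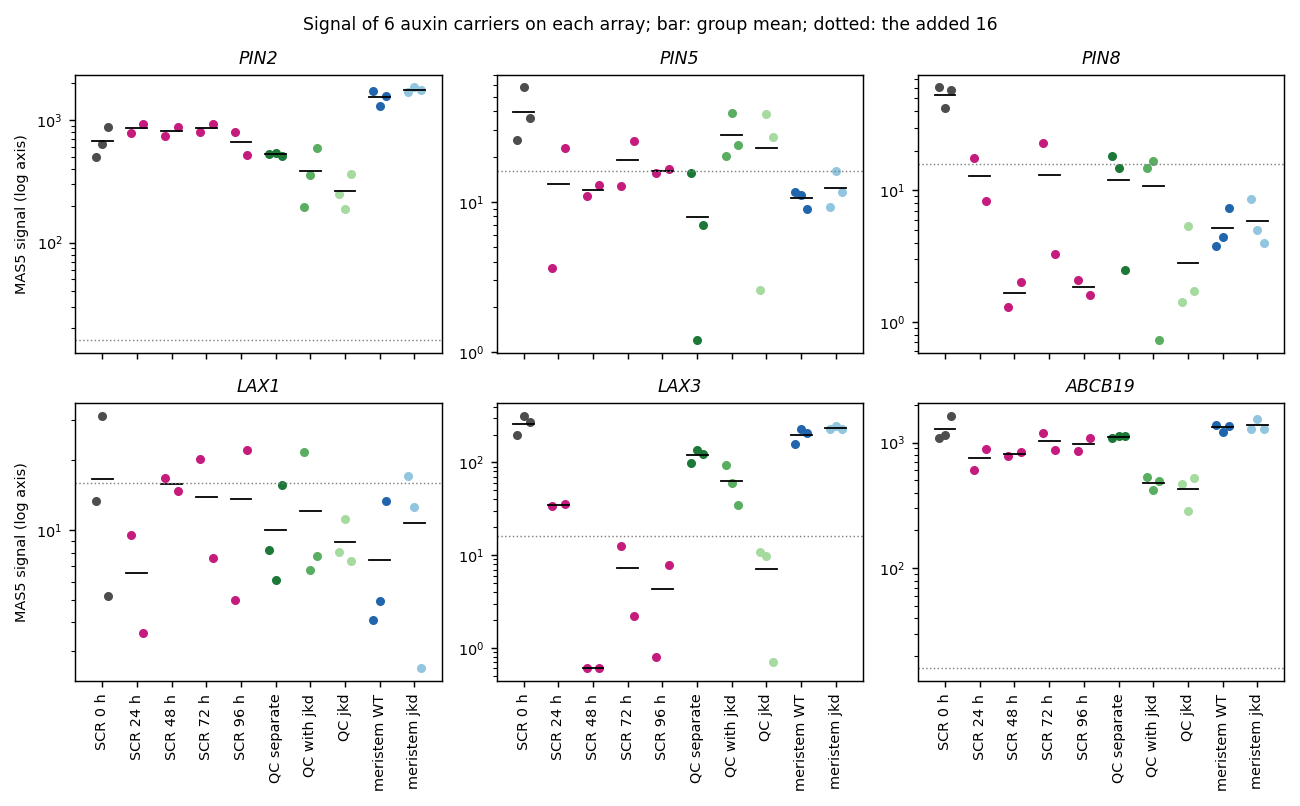
MAS5 signal (log axis) of the 6 carriers on each of the 26 arrays, 1 point per array, by group, with the group mean as a bar and the added constant of 16 dotted. SCR are cells sorted with the SCR promoter, at 0 h or on 2,4-D, QC quiescent centre cells and WT wild type. LAX3 fell from 197.3 or more at 0 h to 36 or less in all treated arrays, PIN8 was highest at 0 h, and PIN2 was highest in the meristem.

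In SCR cells on 2,4-D, LAX3 fell at every time, while PIN2 and ABCB19 did not pass at any. LAX3 differed from 0 h by -2.43 ± 0.38 at 24 h (n = 2 against 3, limma adjusted p = 0.00018), -4.05 ± 0.38 at 48 h (adjusted p = 4.12e-06), -3.59 ± 0.38 at 72 h (adjusted p = 7.85e-06) and -3.78 ± 0.38 at 96 h (adjusted p = 4.38e-06). The same 3 arrays of 0 h enter all 4 differences. With 64 added in place of 16 the difference at 48 h was -2.32, so its size rests on the constant, as signals there are near background. Without 0 h replicate 5 it was -4.01. Over all alternatives that gave a value, leaving out each 0 h array among them, it ran from -4.35 to -2.32. LAX3 entered this fit, whose filter lay at a signal of 21.5, through its 0 h arrays: its mean level was 31.9 over the 11 arrays and 8.89 without those of 0 h, and a gene kept in this way had to differ. In the fit without a filter it passed at all 4 times too, with an adjusted p of 0.000173 at 24 h and 2.90e-06 at 48 h. At each time LAX3 was 1 of the 3 tested members to pass, and the 1 passing member was lower. Over all tested probe sets 48.1% passed at 24 h (27.5% lower), 49% at 48 h (27.2% lower), 49.3% at 72 h (26.4% lower) and 52.4% at 96 h (27.7% lower).

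From 24 h to 96 h, 0 of the 3 tested members passed, 1 had an unadjusted p under 0.05, and 3.86% of all tested probe sets passed. That 1 was LAX3, at -1.35 ± 0.41 (adjusted p = 0.0914, n = 2 against 2), and it passed in a single fit of all 26 arrays (adjusted p = 0.0377).

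PIN2 differed from 0 h by 0.37 ± 0.31, 0.30 ± 0.31, 0.37 ± 0.31 and -0.03 ± 0.31 at the 4 times. Its 95% interval at 96 h ran from -0.70 to 0.64, and differences inside it could not be told from 0 with these arrays. ABCB19 stood at -0.77 ± 0.31 at 24 h (limma adjusted p = 0.0522), next to the threshold, and passed there after quantile normalization (adjusted p = 0.0372) and in a single fit of all 26 arrays (adjusted p = 0.0181). At 48 h, 72 h and 96 h it stood at -0.64, -0.31 and -0.38. The single fit also took ABCB19 past the test at 48 h (adjusted p = 0.0483).

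Without the filter on low signals, PIN8 was lower than at 0 h at all 4 times, at -1.27 ± 0.37 at 24 h (limma adjusted p = 0.0131), -1.97 at 48 h (adjusted p = 0.000753), -1.33 at 72 h (adjusted p = 0.00976) and -1.95 at 96 h (adjusted p = 0.000724). In that fit of 16384 probe sets, the shares called lower, in order of time, were 28.4%, 29.8%, 28% and 29.4%. The low end of the signals differed between these arrays as a whole, with a 30th percentile of 36.7 to 51.5 at 0 h and 15.2 to 23.3 in the treated arrays. All treated PIN8 arrays but 2 were under 16, so these sizes depend on the constant. PIN5 in the same unfiltered fit stood at -0.98 ± 0.40 at 24 h (adjusted p = 0.0624), and LAX1 at -0.46 ± 0.41 (adjusted p = 0.374).

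Markers of several cell types moved along with LAX3, in both directions. The summed signal of 7 epidermis markers was 299.6 to 1381.8 at 0 h and 35 to 229.5 in the treated arrays, with 5 of the 7 below 16 on both arrays of 48 h, COBL9, EXPA7, GL2, RHD6 and EGL3. That of 7 endodermis markers was 14478.8 to 24484.4 at 0 h and 1115.4 to 1639.6 at 96 h, where CASP4 and CASP5 were below 16. PER64 and CASP2 had means of 6222 and 5049 at 0 h, so they weigh heavily in that sum, and 5 of the 7 were called lower and 0 higher at 96 h. The endodermis regulator SCR read 382.6 to 778.3 at 0 h and 663.8 and 1073.6 at 96 h, and it was called higher at 72 h. MYB36 read 259 to 2221.9 at 0 h and 1137.9 and 1472.5 at 24 h. The QC marker sum was higher on 2,4-D, at 3771.4 to 5578.7 at 96 h against 420.9 to 668.8 at 0 h. The sum of 6 stele markers was 110.8 to 242.4 at 0 h and 457.2 to 578.5 at 96 h. Of these 6, only 3 were tested, all higher at 96 h, and VND6 was below 16 there. The sum of 4 root cap markers overlapped, at 355.7 to 389.9 at 96 h against 212 to 544.5 at 0 h. At 96 h, 2837 of the 11469 tested probe sets were called higher and 3176 lower. Median signals were also lower in all 8 treated arrays, at 57.45 to 74.15 against 83.2 to 102.6 at 0 h. Mean plastid log2 signals, given above, were also higher in all treated arrays than in 0 h replicates 1 and 3. The part of these cell types, the array medians and the plastid signals in the LAX3 difference was not tested. In sorted bulk RNA, fewer cells of a type and less RNA per cell cannot be told apart.

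**Figure D2:**
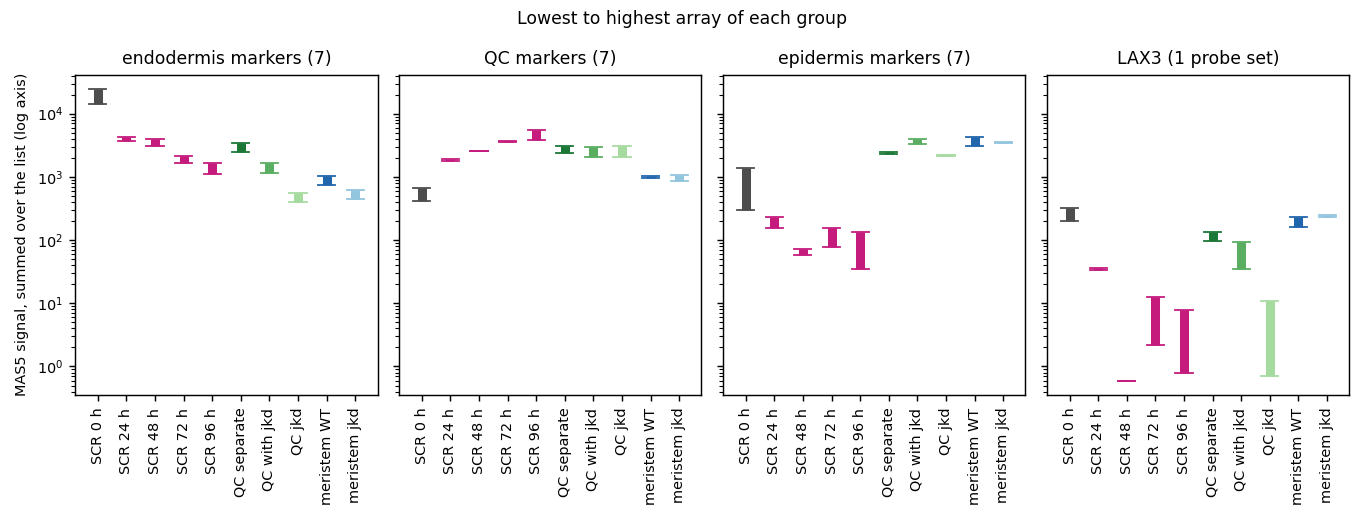
Summed MAS5 signal (log axis) of 7 endodermis, 7 QC and 7 epidermis markers, and the signal of LAX3, as the lowest to highest array of each group. Endodermis and epidermis sums and LAX3 were all lower in the treated SCR cells than at 0 h, and the QC sum was higher, reaching 5578.7 at 96 h.

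The study's title speaks of endodermis turning into quiescent centre, and SCR cells were therefore compared with QC cells of the separate harvest. At 0 h the SCR cells held more LAX3 than QC cells, and at 24 h and 96 h they held less. LAX3 was higher at 0 h, at 1.03 ± 0.31 (n = 3 against 3, limma adjusted p = 0.011), lower at 24 h, at -1.40 ± 0.35 (adjusted p = 0.0055) and lower at 96 h, at -2.75 ± 0.35 (adjusted p = 2.04e-05). The call at 0 h was lost with a constant of 1 (adjusted p = 0.19) and without 0 h replicate 3 (adjusted p = 0.0552), and the one at 24 h with a constant of 1 (adjusted p = 0.1). In each of these, 1 of 3 tested members passed, against 51.3% of all tested probe sets at 0 h, 31.7% at 24 h and 30.3% at 96 h. Markers differed between these cells too. The epidermis sum was 2302 to 2454.2 in the separate QC harvest, above the SCR cells at every time. At 24 h and at 96 h, 6 of 6 tested epidermis markers were lower. The fit of SCR arrays alone tested 3 epidermis markers, so some of the 6 entered through the QC arrays. A gene kept in this way had to differ. Of 7 endodermis markers, 5 were higher at 0 h and 5 lower at 96 h than in the QC, and their part in the LAX3 values was not tested. The cells differ in promoter and in age as well as in treatment, which cannot be told apart here.

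PIN2 stood at 0.32 ± 0.25 at 0 h, 0.69 ± 0.28 at 24 h and 0.29 ± 0.28 at 96 h against the QC, and ABCB19 at 0.18 ± 0.24, -0.59 ± 0.27 and -0.20 ± 0.27. None of these 6 values passed. In the unfiltered fit, PIN8 and PIN5 were higher at 0 h than in the QC, PIN8 by 1.35 ± 0.35 (limma adjusted p = 0.00357) and PIN5 by 1.22 ± 0.36 (adjusted p = 0.00955). In that fit 27.8% of all probe sets were called higher at 0 h, where the 30th percentile of the signals was 36.7 to 51.5 against 23.9 to 30 in the QC.

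Between quiescent centre and whole meristem of wild type, PIN2 and LAX3 were lower in the QC in both harvests, and ABCB19 in one of them. The same 3 wild type meristem arrays enter both comparisons, so these are not independent. PIN2 differed by -1.51 ± 0.16 in the separate harvest (n = 3 against 3, limma adjusted p = 2.12e-06) and by -2.09 ± 0.34 in the QC grown with jkd (adjusted p = 0.000796). LAX3 differed by -0.67 ± 0.21 (adjusted p = 0.0142) and -1.51 ± 0.33 (adjusted p = 0.00369). The first of these LAX3 calls was lost in a single fit of all 26 arrays (adjusted p = 0.103) and without separate harvest replicate 1 or meristem replicate 2 or 3, with adjusted p of 0.0573, 0.0753 and 0.055. ABCB19 stood at -0.24 ± 0.15 in the separate harvest (adjusted p = 0.178) and differed by -1.43 ± 0.20 in the QC grown with jkd (adjusted p = 0.00032). In all, 2 of 3 tested members passed in the separate harvest, both lower, where 58.3% of tested probe sets passed and 31.3% were lower. In the QC grown with jkd, 3 of 3 passed, all lower, where 49.6% passed and 27.8% were lower.

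The meristem was excised and not sorted, so sorting and cell type cannot be told apart in these differences. Values of the separate harvest carry 1 decimal and those of the meristem 2, so a step of processing cannot be told apart there either. Mean plastid log2 signals were 9.23 to 10.3 in the wild type QC arrays and 7.16 to 7.31 in the wild type meristem. The epidermis marker sum, 3114.66 to 4340.1 in the wild type meristem, was 2302 to 2454.2 in the separate harvest and 3280.25 to 3968.8 in the QC grown with jkd, and overlapped there. The root cap sum was 1219.43 to 1766.21 in the wild type meristem, 1112.1 to 1285.6 in the separate harvest and 331.01 to 551.06 in the QC grown with jkd. The part of either in the PIN2 difference was not tested.

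The wild type QC harvests differed from each other in ABCB19. It was higher in the separate harvest by 1.20 ± 0.21 (n = 3 against 3, limma adjusted p = 0.00143), with no overlap between the arrays. LAX3 stood at 0.84 ± 0.35 (adjusted p = 0.102) and PIN2 at 0.57 ± 0.33 (adjusted p = 0.232). Here 1 of 3 tested members passed, against 23.1% of all tested probe sets. The root cap marker sum was 1112.1 to 1285.6 in the separate harvest and 331.01 to 551.06 in the other, and the endodermis sum 2469.2 to 3496.6 against 1167.02 to 1656.62. The epidermis sum went the other way, at 2302 to 2454.2 against 3280.25 to 3968.8, and the QC and stele sums overlapped. The part of these markers was not tested. Harvest and the number of decimals in the deposited values cannot be told apart. PIN2 passed without replicate 3 of the QC grown with jkd (adjusted p = 0.0488), and LAX3 without replicate 1 of it (adjusted p = 0.0373).

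In the jkd mutant, 0 of 4 tested members passed in the QC, where 0.105% of all tested probe sets did, and 0 of 3 in the meristem, where 0.933% did. In limma's test 1 member had an unadjusted p under 0.05 in the QC, and 0 had in the meristem. The 1 was LAX3, at -1.73 ± 0.53 in the jkd QC (95% interval -2.85 to -0.61, adjusted p = 0.294, n = 3 against 3), where all 3 mutant arrays were lower than all 3 wild type arrays. LAX3 entered this fit through its wild type arrays, and a gene kept in this way had to differ. The share of other probe sets whose arrays separate in this comparison was not counted. A single fit of all 26 arrays, in which the spread is shared with other groups, gave LAX3 an adjusted p of 0.00296. With a constant of 64 its difference was -0.81. In the jkd meristem LAX3 stood at 0.25 ± 0.19 (adjusted p = 0.911).

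The difference between these effects, QC minus meristem, was -1.98 ± 0.48 for LAX3 (limma unadjusted p = 0.000707, adjusted p = 0.225), and it did not pass. The adjusted p ranged from 0.0867 to 0.637 over the alternatives tried. Of all tested probe sets 0% passed this comparison, and 909 had an unadjusted p under 0.05. PIN2 stood at -0.63 ± 0.46 and ABCB19 at -0.26 ± 0.34.

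Sums of stele, endodermis and epidermis markers were also lower in the jkd QC than in the wild type QC grown with it. The stele markers summed to 144.92 to 264.96 against 363.04 to 627.73, the endodermis markers to 398.8 to 548.96 against 1167.02 to 1656.62, and the epidermis markers to 2111.53 to 2257.76 against 3280.25 to 3968.8. The QC markers overlapped, at 2077.46 to 3119.8 against 2035.7 to 2998.24. So did the root cap markers, at 348.62 to 371.6 against 331.01 to 551.06. Among tested markers, 0 of 4 stele, 0 of 7 endodermis, 0 of 7 epidermis, 0 of 7 QC and 0 of 4 root cap markers passed. Over all tested probe sets 0.105% did. Median signals were 65.5 to 67.5 in the jkd QC arrays against 74.8 to 85.4 in this wild type. LAX3 passed the filter in the jkd QC comparison through the wild type arrays, with a mean level of 6.60 in jkd against a filter at 22.6. The part of the markers and medians in the LAX3 values was not tested. PIN2, at -0.42 ± 0.43 in the QC and 0.22 ± 0.17 in the meristem, and ABCB19, at -0.20 ± 0.35 and 0.05 ± 0.16, did not pass, nor did PIN5 in the QC at -0.29 (limma adjusted p = 0.917). The 95% interval of ABCB19 in the QC ran from -0.95 to 0.54, and values inside it were not told apart from 0.

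**Figure D3:**
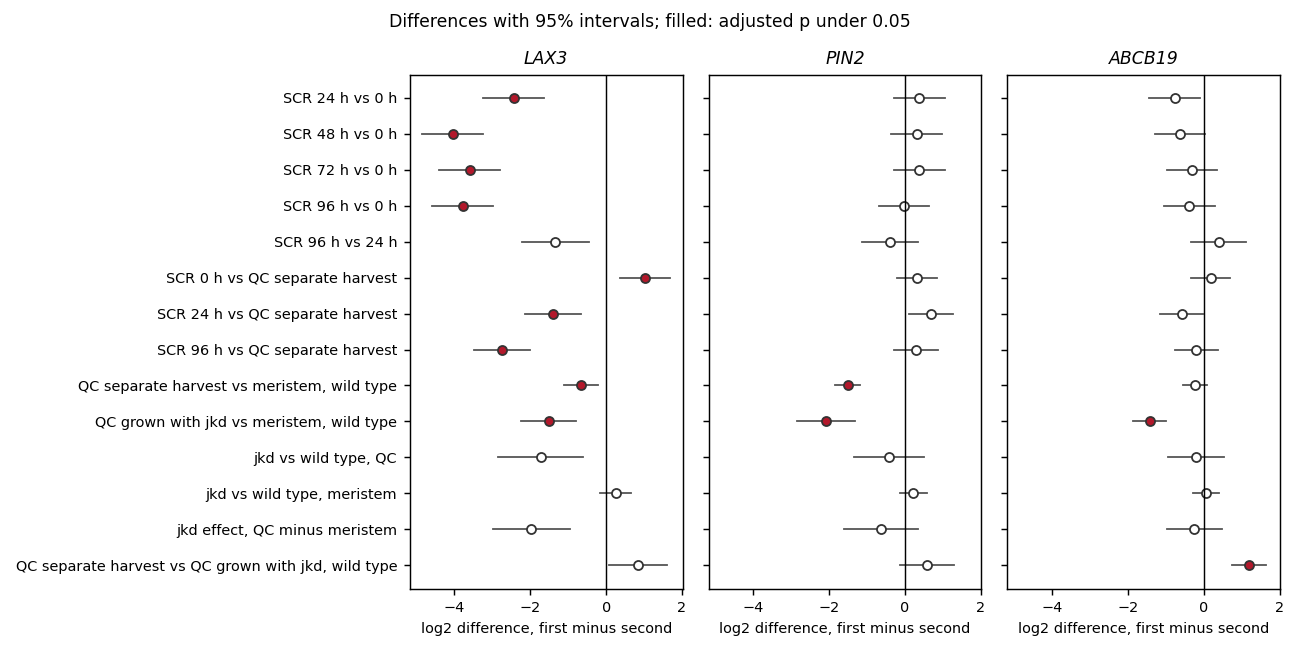
Differences on the log2 scale, first group minus second, with 95% intervals for LAX3, PIN2 and ABCB19 in the 14 comparisons, where filled points have an adjusted p under 0.05. LAX3 passed in 9 of the 14, PIN2 in 2 and ABCB19 in 2.

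Other carriers of the pathway moved in both directions on 2,4-D. Of 17 further carrier genes listed, 5 had a row, and 4 were tested in SCR cells: ABCB21, a relative of ABCB19, and PILS2, PILS3 and PILS6, PIN-like proteins of the endoplasmic reticulum. At 24 h, 2 of the 4 rose and 2 fell, with a median of -0.16 beside -0.21 over all tested probe sets, and at 96 h 1 rose and 2 fell, with a median of -0.66 beside -0.11. Over all tested probe sets 48.1% passed at 24 h and 52.4% at 96 h. PILS3 rose from 52.9 to 122.2 at 0 h to 1102.3 and 1684 at 24 h and 2040 and 2958.4 at 96 h. Its differences were 3.80 ± 0.42 (limma adjusted p = 1.80e-05) and 4.64 ± 0.42 (adjusted p = 2.89e-06), and every treated array stood above every other array in the series.

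ABCB21 rose by 1.40 ± 0.42 at 24 h and 1.51 ± 0.42 at 48 h, from 5.4 to 23.7 at 0 h, near background, and stood at 0.10 at 96 h (limma adjusted p = 0.856). Between 24 h and 96 h 0 of the 4 passed, beside 3.86% of all tested probe sets, and 1 had an unadjusted p under 0.05 in limma's test.

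PILS2 and PILS6 fell at all 4 times. PILS2 fell from 275.1 to 353.6 at 0 h to 56.3 to 95.6 in the treated arrays, with differences of -1.72 ± 0.29 at 24 h and -2.04 ± 0.29 at 96 h (limma adjusted p = 8.40e-05). PILS6 read 182.6 to 727.6 at 0 h and differed by -1.75 ± 0.46 and -1.41 ± 0.46. PILS4, another member of that family, was below the filter.

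**Figure D4:**
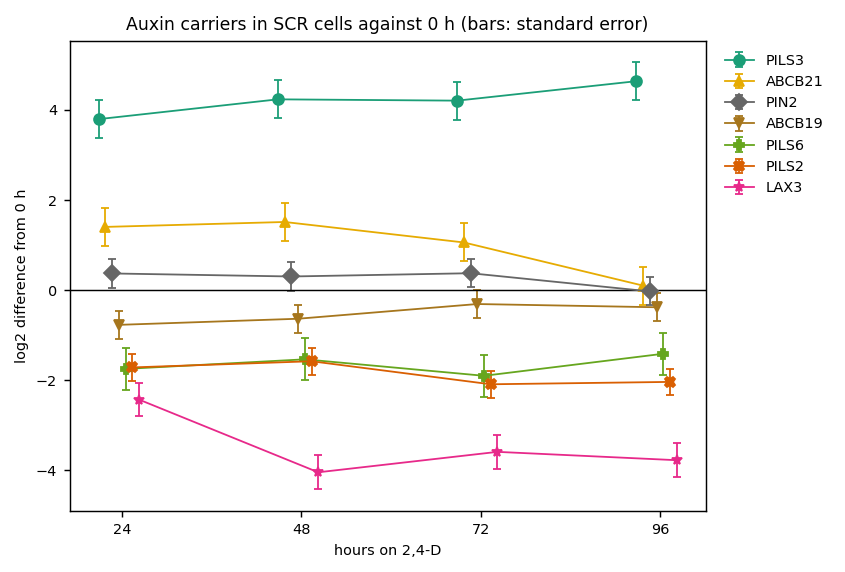
Log2 difference from 0 h of 7 auxin carriers in SCR cells after 24 h, 48 h, 72 h and 96 h on 2,4-D, with the standard error as bars and points shifted sideways for legibility. PILS3 lay near 4 throughout, PIN2 and ABCB19 stayed within 0.8 of 0, and LAX3 was lowest at -4.05.

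Between QC and meristem of wild type, 3 of these carriers were tested, and PILS6, PILS3 and PILS2 were all lower in the separate harvest, at -1.19 ± 0.20, -1.12 ± 0.24 and -0.53 ± 0.18, and PILS2 alone in the QC grown with jkd, at -1.23 ± 0.32. Over all tested probe sets 58.3% passed in the separate harvest, 31.3% lower, and 49.6% in the QC grown with jkd, 27.8% lower. In jkd, 0 of 4 passed in the QC and 0 of 3 in the meristem, beside 0.105% and 0.933% of all tested probe sets. There, 2 and 1 had an unadjusted p under 0.05 in limma's test.

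Genes that place or regulate the carriers were listed next, 30 in all, of which 23 had a row and were tested. They include kinases that phosphorylate PIN proteins (WAG1, WAG2 and the D6PK family), trafficking factors (SNX1, VPS29, BEN1) and partners such as TWD1. On 2,4-D, 5 rose and 6 fell at 24 h, 5 and 6 at 48 h, 6 and 4 at 72 h, and 6 and 7 at 96 h. These counts, 11, 11, 10 and 13 of 23, stood near the share of all tested probe sets that passed, 48.1%, 49%, 49.3% and 52.4% at the 4 times. The list's median at 96 h was -0.15, beside -0.11 over all tested probe sets.

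At 24 h the largest rises were in NPY3, of the NPH3-like family that acts with the PIN kinases, at 2.05 ± 0.37, BIG, a large protein needed for auxin transport, at 1.54 ± 0.32, the sorting nexin SNX1 at 1.23 ± 0.35 and the kinase gene D6PKL3 at 1.17 ± 0.38. The largest falls were in WAG1 at -1.66 ± 0.59 and the ROP effector RIC1 at -1.15 ± 0.37. D6PK at -1.02 ± 0.32 and the retromer subunit VPS29 at -0.98 ± 0.30 followed. WAG1 read 28.1 to 172.4 at 0 h and 3.8 and 29.5 at 24 h, so these arrays overlapped. At 96 h it read 4.3 and 14.4, near background. Without the 0 h arrays, the mean levels of WAG1 and RIC1 lay under the filter at a signal of 21.5. Both thus entered the fit through 0 h, and a gene kept in this way had to differ. By 96 h NPY3 (2.18 ± 0.37), SNX1 (1.58 ± 0.35), NPY1 (1.27 ± 0.34) and TWD1 (1.22 ± 0.31, limma adjusted p = 0.00491) led the risers, and WAG1 (-1.93 ± 0.59), WAG2 (-1.85 ± 0.70), BEN1 (-1.29 ± 0.27) and RIC1 (-1.20 ± 0.37) the fallers. TWD1, the partner of ABCB19, thus rose from 81.9 to 145.1 at 0 h to 260.3 and 303 at 96 h, while ABCB19 stood at -0.38 ± 0.31.

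In the QC against the meristem, 12 of the 23 were lower and 5 higher in the separate harvest, and 12 lower and 2 higher in the QC grown with jkd. Over all tested probe sets 58.3% passed in the first, 31.3% lower, and 49.6% in the second, 27.8% lower. NPY1 was the highest in both, at 2.42 ± 0.23 and 1.66 ± 0.32, and D6PKL2 was among the lowest in both, at -1.36 ± 0.19 and -1.83 ± 0.33. In jkd, 0 of 23 passed in the QC and 0 in the meristem, beside 0.105% and 0.933% of all tested probe sets, with 2 and 1 at an unadjusted p under 0.05 in limma's test.

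The probe sets whose pattern over the 10 group means was most like each tested carrier were sought among 11274 candidates. For LAX3 these were COBL9, a root hair gene (Pearson r = 0.978), AT1G57590 (r = 0.977) and UDG4 (r = 0.976). COBL9 is itself one of the epidermis markers above, and read 110.3 to 293.1 at 0 h, 16.2 and 32.6 at 24 h and 5.8 and 9.7 at 48 h. For ABCB19 they were AT5G58300 (r = 0.984), AT1G19430 (r = 0.973) and RGTA1 (r = 0.971), and for PIN2 AT1G73460 (r = 0.972), whose probes may be shared, KDTA (r = 0.966) and EMB3141 (r = 0.963). For PIN5, PIN8 and LAX1, much of whose range is near background, the best r was 0.947, 0.942 and 0.851. Among the members, PIN2 and ABCB19 had the highest r, 0.804 over the 10 groups, and LAX3 correlated at 0.564 with ABCB19 and 0.415 with PIN2. Each r rests on 10 group means that share arrays and scaling, and the best of many candidates is high by selection.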

How the data were processed

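Each array gives 1 value per probe set. The authors deposited these values as MAS5 intensities on a linear scale, as the submitters' processing notes state. No source used here names the MAS5 version, its scaling target, detection calls, the array type or a genome build. Sorted protoplasts went directly into lysis and a column RNA preparation with DNase, and the RNA was amplified before labelling, per the labels' protocols. The deposited matrix and the value table are equal in all columns (23 by name, 3 as a set), and locus codes come from the matrix. RefSeq symbols matched 16032 of 16255 loci.

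From these intensities log2(signal + 16) was computed, and each comparison was fitted with limma 3.58.1 in R 4.3.3 (eBayes with trend and robust, Benjamini-Hochberg adjustment, threshold 0.05), after leaving out probe sets with a mean under the 30th percentile. SCR comparisons share a fit of 11 arrays, those with the QC one of 14, the others use 6 or 12. The fit was tested on simulated data. Alternatives were constants of 1 and 64, no filter and a filter at the median, quantile normalization, plain eBayes, a single fit of all 26 arrays, the replicate number as a block, and leaving out each array.

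Named were the 7 carriers in every comparison, from each list at most 4 passing genes per direction with the largest difference, and the 3 most alike probe sets. The members and lists were chosen with earlier results of these data known. Deviations of same-numbered arrays correlated at -0.142 to 0.177, highest between 24 h and 48 h. The numbers were not taken to pair samples. Genotypes were read from titles and source names, since the descriptions of the jkd arrays contradict them. The number of arrays limits the precision. No sequences were used, and 1 gene of the carrier list is not reported here.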

Additional observations from a re-analysis of the deposited data

How the results depend on the processing

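LAX3 kept its direction under all alternatives that gave it a value in the 9 comparisons where it passed, and its falls from 0 h passed under all of them, with adjusted p up to 0.00316 at 24 h. A constant of 1 and a filter at the median left LAX3 out of the tests within SCR cells, and the settings that ended its other calls are given beside them. PIN2 against the meristem and ABCB19 between the QC harvests passed throughout. No call of a carrier reversed. Of 42 carrier differences 5, none of which passed, took both signs over the alternatives: PIN2 at 96 h against 0 h (-0.32 to 0.27) and against the QC (-0.0079 to 0.58), and ABCB19 at 0 h against the QC (-0.02 to 0.30), in the jkd QC (-0.37 to 0.04) and in the jkd meristem (-0.03 to 0.09). Of 177 calls of listed genes, 94 held under all alternatives and 83 were lost under at least 1, while 0 reversed. Signals under 16 limit PIN5, PIN8, LAX1 and the treated LAX3 arrays.

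Counts of all passing probe sets moved by over 1.5 times as follows, and the cause was not tested. A single fit of all 26 arrays gave 707 in place of 443 between 96 h and 24 h, 4378 in place of 6690 for the separate QC harvest against meristem, 436 in place of 12 for jkd in the QC, 16 in place of 107 for jkd in the meristem and 9 in place of 0 for the difference between these. The jkd QC count was 7 with a constant of 1 and 2 with plain eBayes, the jkd meristem count was 60 without a filter and 53 with one at the median, and the difference gave 2 with a constant of 1 and 7 with 64. Quantile normalization gave 250 between 96 h and 24 h. It moved the median of all tested probe sets from -0.21 to 0.04 at 24 h, -0.16 to 0.07 at 48 h, -0.09 to 0.07 at 72 h, -0.11 to 0.09 at 96 h, and against the QC from -0.10 to 0.08 at 24 h and 0.01 to 0.15 at 96 h. The share of higher calls at 24 h rose from 43% to 53.2% with it. LAX3 changed there by -2.30 in place of -2.43.

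With the replicate block, counts were 935 between 96 h and 24 h, 41 for jkd in the QC and 187 for jkd in the meristem, and it changed no call of a carrier. Whether same-numbered arrays share more than a number is not known.

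Leaving out 1 array gave 3757 to 5797 at 72 h, the lowest without 72 h replicate 2, 14 to 311 between 96 h and 24 h, the lowest without 24 h replicate 2 and then 119 and 174 without 96 h replicate 2 and 3, 2204 to 2863 at 24 h against the QC (without 24 h replicate 2), 2279 to 2736 at 96 h against the QC, with 2279 and 2391 without 96 h replicate 2 and 3, 2 to 10 for jkd in the QC, lowest without jkd replicate 3 and 6 without wild type replicate 3, 50 to 82 for jkd in the meristem, with 50, 63 and 65 without jkd replicate 1, jkd replicate 2 and wild type replicate 3, 0 to 5 for the difference between jkd effects, and 1399 to 3407 between QC harvests, with 1454, 1399 and 1548 without each array of the separate harvest. The promoter search planned was not run.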

Other observations

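Genes that inactivate or release auxin were listed beside the carriers, 13 in all, of which 7 had a row and were tested. GH3.5, an enzyme that joins auxin to amino acids, rose on 2,4-D by 1.77 ± 0.44 at 48 h, 2.86 ± 0.44 at 72 h and 1.73 ± 0.44 at 96 h (limma adjusted p = 0.00485), from 100.6 to 224 at 0 h to 922.6 and 1386.5 at 72 h. ILL6, of the hydrolase family that frees hormones from such conjugates, fell at all 4 times, with differences of -2.68 ± 0.64 at 24 h and -3.75 ± 0.64 at 96 h (adjusted p = 0.000752), although its 0 h arrays ranged from 683.5 to 4180.1. IAR3, a conjugate hydrolase whose probes may be shared with another gene, rose at 24 h by 1.43 ± 0.42. At each of the 4 times 1 of the 7 rose and 1 fell, while from 48.1% to 52.4% of all tested probe sets passed.

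Between QC and meristem of wild type, where 58.3% of all tested probe sets passed in the separate harvest and 49.6% in the QC grown with jkd, the list's counts differed by harvest. In the separate harvest 5 of 7 were higher in the QC and 0 lower, with a median of 2.06 beside -0.08 over all tested probe sets, and IAR3 (2.67 ± 0.21), GH3.3 (2.50 ± 0.22) and GH3.5 (2.14 ± 0.20) led. In the QC grown with jkd 5 were higher and 2 lower, the latter GH3.17 at -1.69 ± 0.21 and GH3.6 at -1.52 ± 0.54. In jkd, 0 of 7 passed in either tissue, beside 0.105% of all tested probe sets in the QC and 0.933% in the meristem. There, 0 and 2 had an unadjusted p under 0.05 in limma's test.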
